A study of Mus musculus with 19 samples.

Results

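The nuclear-encoded subunits of the respiratory chain and of ATP synthase were chosen by gene symbol from the protein-coding genes of 4 deposited tables. A symbol was taken if it began with Ndufa, Ndufb, Ndufc, Ndufs or Ndufv and a number, or was Sdha, Sdhb, Sdhc or Sdhd. Symbols that began with Uqcr, with Cox and a number from 4 to 8, or with Atp5 were also taken. Those marked by name as pseudogenes or assembly factors were dropped. This gave 82 of 24192 genes, of which 35 were counted under complex I, 4 under complex II, 8 under complex III, 18 under complex IV and 17 under complex V. Cyc1, the cytochrome c1 subunit of complex III, does not match these symbols and is not among the 82. No measured value is part of this rule, but the set was taken up with earlier results of these data known. The symbols do not always match the protein's present place: Ndufa4 is now regarded as a subunit of complex IV, Cox7a2l as a factor that joins complexes, and Atp5sl, which RefSeq lists as Dmac2, as a factor of complex I assembly rather than a part of ATP synthase. Atp5sl stays among the 82 by its symbol, and what is said of the chain below includes it.

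RNA was sequenced from the whole livers of 19 adult mice, 1 library per mouse. Diet was either low in fat (LF) or high in fat, fructose and cholesterol (HF), the latter for 24 weeks, and genotype was either control (C) or, per the labels, a knockout of PPARγ in hepatocytes (KO) that had been induced beforehand. The groups were LF-C (n = 4), LF-KO (n = 4), HF-C (n = 5) and HF-KO (n = 6), and the series describes the HF diet as a model of non-alcoholic steatohepatitis, a fatty liver with inflammation. The sources used here do not say how the knockout was induced or what alleles the control mice carried.

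The respiratory chain passes electrons from NADH through complex I, or from succinate through complex II, to ubiquinone, complex III, cytochrome c and complex IV, which reduces oxygen. Complexes I, III and IV pump protons across the inner mitochondrial membrane, and ATP synthase, complex V, uses the gradient to make ATP. Hepatocytes are rich in mitochondria, and except for complex II each complex also holds subunits encoded by mitochondrial DNA.

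The sequences before the transcription starts of 5 genes are shown because the results below turn on these genes. Of these, 3 are subunits of complex II whose diet differences were unlike with all libraries. The others are Atp5k, the subunit with the largest fall called by edgeR, and Atp5sl, the gene called in the most comparisons. Each sequence is 300 bases, from 250 bases before the RefSeq start to 50 bases after it, on the gene's strand in build GRCm38.p6. The windows lie at chr13:74350191-74350490 for Sdha and chr9:50603800-50604099 for Sdhd, both on the minus strand, at chr4:140961021-140961320 for Sdhb on the plus strand, at chr5:108434350-108434649 for Atp5k on the minus strand, and at chr7:25619164-25619463 for Atp5sl on the plus strand. Capitals mark exact matches to the motifs named after the sequences.
Sdha: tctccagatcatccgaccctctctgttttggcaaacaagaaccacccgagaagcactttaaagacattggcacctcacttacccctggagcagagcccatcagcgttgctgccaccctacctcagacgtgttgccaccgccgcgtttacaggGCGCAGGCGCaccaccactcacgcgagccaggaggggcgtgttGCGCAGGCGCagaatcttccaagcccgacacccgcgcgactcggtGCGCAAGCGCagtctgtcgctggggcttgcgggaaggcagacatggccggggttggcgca
Sdhb: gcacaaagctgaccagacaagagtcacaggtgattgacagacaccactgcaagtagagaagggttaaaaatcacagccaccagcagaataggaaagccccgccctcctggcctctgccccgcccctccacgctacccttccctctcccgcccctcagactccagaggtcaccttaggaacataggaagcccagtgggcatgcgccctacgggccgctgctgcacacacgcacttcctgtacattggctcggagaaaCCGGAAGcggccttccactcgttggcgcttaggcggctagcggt
Sdhd: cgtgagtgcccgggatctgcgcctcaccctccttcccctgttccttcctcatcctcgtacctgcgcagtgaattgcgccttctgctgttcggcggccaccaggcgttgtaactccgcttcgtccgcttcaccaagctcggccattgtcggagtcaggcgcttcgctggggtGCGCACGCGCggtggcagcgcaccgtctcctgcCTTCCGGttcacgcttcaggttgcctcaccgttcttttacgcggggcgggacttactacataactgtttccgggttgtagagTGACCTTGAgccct
Atp5k: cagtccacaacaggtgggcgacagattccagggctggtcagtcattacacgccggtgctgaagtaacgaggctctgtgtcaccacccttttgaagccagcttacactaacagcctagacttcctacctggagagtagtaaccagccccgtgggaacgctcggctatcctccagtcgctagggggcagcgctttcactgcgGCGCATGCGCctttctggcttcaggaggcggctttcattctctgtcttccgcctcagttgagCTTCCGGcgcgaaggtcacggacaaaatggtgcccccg
Atp5sl: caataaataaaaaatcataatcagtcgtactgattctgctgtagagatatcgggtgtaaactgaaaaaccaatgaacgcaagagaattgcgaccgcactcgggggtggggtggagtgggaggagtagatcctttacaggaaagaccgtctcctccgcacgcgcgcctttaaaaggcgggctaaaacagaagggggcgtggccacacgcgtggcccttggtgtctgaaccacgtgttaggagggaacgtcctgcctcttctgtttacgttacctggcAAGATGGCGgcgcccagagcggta

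The 5 motifs were searched on both strands. They were GCGCA and GCGC with 1 base N between them for NRF1, CCGGAAG for the ETS family that includes GABP, TCAAGGTCA for the oestrogen-related receptors, AAGATGGCG for YY1, and a direct repeat of AGGTCA with 1 base N between the copies for PPAR response elements. The letters AGGTCA are common to the last of these and the oestrogen-related receptor motif. The first 4 belong to factors known as regulators of nuclear genes of respiration. Sdha held 3 NRF1 matches, with first bases at -98, -55 and -10, counted from 0 at the start. Sdhd held an NRF1 match at -79, an ETS match at -46 and an oestrogen-related receptor match at 36. Sdhb held an ETS match at 6, Atp5k an NRF1 match at -50, where the matches on both strands coincide, and an ETS match at 12, and Atp5sl a YY1 match at 26.

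RefSeq windows were found for 68 of the 82 genes, 74 windows in all. The NRF1 motif was in 18 of the 74 windows, or 24.3%, against 4.60% of all 32851 promoter windows of the same length. The ETS motif was in 16 windows, or 21.6%, against 8.86%. The YY1 motif was in 9 windows, or 12.2%, against 1.40%, and the oestrogen-related receptor motif in 2, or 2.70%, against 0.42%. The PPAR element was in 0 of the 74 windows, and in 13 windows, or 0.04%, of all. Either NRF1 or ETS was present for 29 genes and both for 4. The windows of these genes had a median GC content of 57.5%, against 52.7% over all windows. These matches are letters in a window and not measured binding.

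Levels between genes are given as FPKM, fragments relative to listed gene length and library total, and levels of a gene across libraries as CPM, counts relative to a library size scaled by TMM factors. A gene is called at a Benjamini-Hochberg adjusted p under 0.05 over all genes tested, by edgeR's quasi-likelihood test unless another tool is named, and log2 fold changes are given ± SE. In these bulk samples fewer cells of a type and less RNA per cell cannot be told apart. The smallest library, LF-C-1, had 11437875 counted fragments and the largest, LF-C-2, had 20711869. Hepatocyte markers such as Alb and Cps1 were high in every library, with a summed level of 72800 to 194500 CPM in LF-C and 82510 to 114400 CPM in LF-KO, and of 39230 to 51980 CPM in HF-C and 55350 to 66970 CPM in HF-KO. Pparg, the targeted gene, was not lower in the KO-labelled groups, with a mean ± SD of 11.4 ± 5.77 CPM for LF-C against 25.1 ± 15.3 CPM for LF-KO, and of 25.3 ± 4.42 CPM for HF-C against 68.5 ± 25.3 CPM for HF-KO. It was called higher in HF-KO than in HF-C (edgeR adjusted p = 0.00276). Counts over the whole gene in whole liver cannot show whether a part of it was lost in hepatocytes, so they do not decide on the labels. All directions between genotypes below rest on the labels alone.

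Respiratory chain genes are short, and gene length bias differed between libraries. The listed gene length of the 82 genes had a median of 957.5 bases (range 362 to 4715) and was under 1000 bases for 45 of them, while the 12760 other genes whose mean reached 1 CPM had a median of 3107 bases. The bias of a library was measured without the respiratory chain genes, as the median log2 deviation from the mean over libraries of genes under 1000 bases minus that of genes of at least 4000 bases. It was 1.66 in LF-C-2, 0.95 in HF-KO-2, 0.52 in LF-C-1, 0.29 in HF-KO-6 and 0.27 in LF-KO-3, and -0.48 to 0.08 in the other 14 libraries. The first 4 of these libraries also had the highest share of counts in respiratory chain genes, 2.23% in LF-C-2, 1.99% in HF-KO-2, 1.66% in LF-C-1 and 1.64% in HF-KO-6. For LF-C-3 and LF-C-4 this share was 1.29% and 1.26%, within the 1.19% to 1.39% of the 5 HF-C libraries. Of the 82 genes, 79 of which passed the count filter over all 19 libraries, 62 had their highest level in LF-C-2. Among all genes that passed the filter, 26.5% had theirs there. Of the 11 HF libraries, HF-KO-2 had the highest level for 67 of the 82.

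LF-C-2 stood apart in other respects too. Mitochondrially encoded mRNA made up 1.64% of its counts against 4.02% to 5.92% in the other 18 libraries, and erythroid markers summed to 1467 CPM against at most 402. Hepatocyte markers summed to 194500 CPM against at most 114400, and bile duct cell markers to 89.6 CPM against at most 54.8. Adipose markers summed to 10.7 CPM against at most 0.174, with no marker at 0. Pancreas markers summed to 38.9 CPM against at most 0.522, although Ctrb1 alone made up that sum and Cela2a, Prss2 and Cpa1 were at 0 there. Their part in the results below was not tested. The counts and medians of the chain, and the named subunits whose values moved most, are therefore given with and without LF-C-2 or the other libraries with raised short genes.

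**Figure D1:**
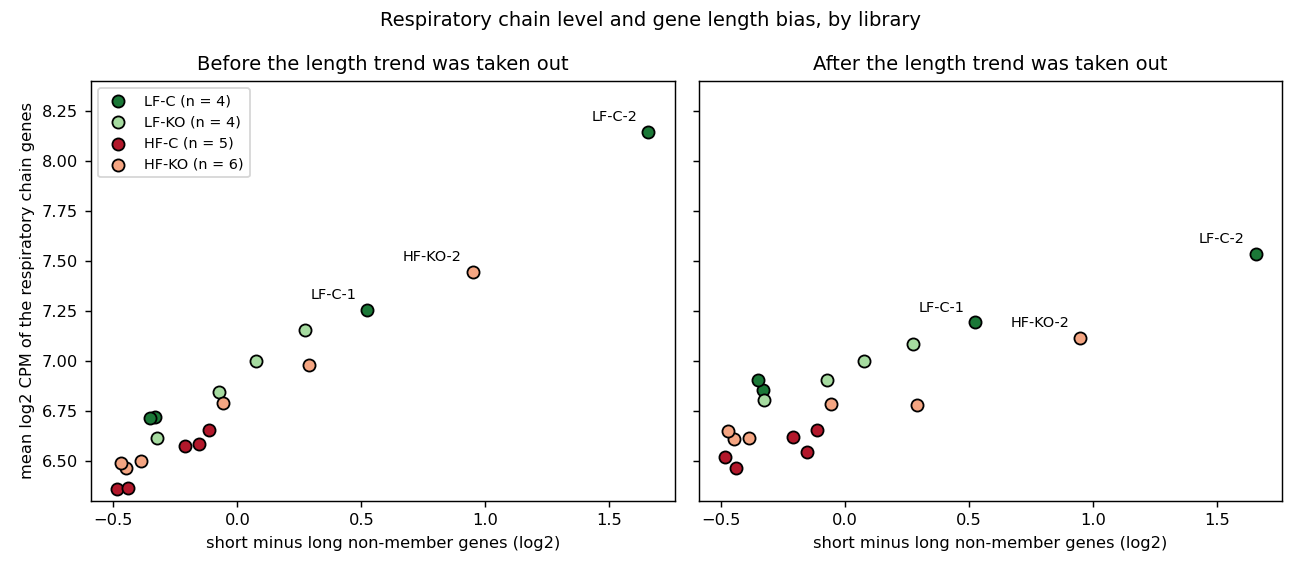
Mean log2 CPM of the respiratory chain genes (vertical axis) against the length bias of each library, the short minus long deviation of other genes in log2 units (horizontal axis), with 1 point per library coloured by group, before (left) and after (right) a length trend was taken out. LF-C-2 lies farthest right and highest at a bias of 1.66, and after the trend was taken out the LF-C mean was 7.12 and the HF-C mean 6.56.

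The mean log2 CPM of the chain, with 0.5 CPM added, over the 79 genes that passed the filter was 7.21 ± 0.68 for LF-C and 6.90 ± 0.23 for LF-KO, and 6.51 ± 0.14 for HF-C and 6.78 ± 0.39 for HF-KO (SD over libraries). After a smooth trend on transcript length was taken out of each library the means were 7.12 ± 0.31, 6.95 ± 0.12, 6.56 ± 0.08 and 6.76 ± 0.19. In both versions the LF-C mean was highest and the HF-C mean lowest, and the spread within LF-C and HF-KO was smaller with the trend taken out. The top rank of LF-C rested on LF-C-1 and LF-C-2. LF-C-3 and LF-C-4 were at 6.72 and 6.71 before and at 6.86 and 6.90 after, below the LF-KO mean in both versions. On that second scale the lowest LF-C library was at 6.86 and the highest HF-C library at 6.66, so the groups did not overlap. The 5 HF-KO libraries other than HF-KO-2 lay between 6.61 and 6.79. Other genes moved with such a trend taken out too. In the fit of HF-C against LF-C the median log2 fold change over all genes was then -0.17, against 0.02 before. The part of this shift in the gap between the groups was not tested.

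In level per length, 46 of the 82 genes had a median over the 19 libraries above 100 FPKM, 28 between 10 and 100, and 8 at or under 10. Atp5b, the catalytic beta subunit of ATP synthase, was highest at a median of 624.5 FPKM (range 515.8 to 762.4), followed by Cox6a1, the liver form of a small complex IV subunit, at 615.4, and Ndufa4 at 599.5. The ranges of these 3 overlapped. Their order differed between the groups: the group mean of Cox6a1 was above that of Atp5b in LF-C at 848 against 666 FPKM, in LF-KO at 620.9 against 577.9 and in HF-KO at 615.6 against 600.6, and below it in HF-C at 643.9 against 652.1. Ndufa4 had a group mean of 816.1 FPKM in HF-KO, 738 in LF-C, 652.3 in LF-KO and 579.6 in HF-C. The means of LF-C and HF-KO include LF-C-2 and HF-KO-2, the libraries with the strongest bias towards short genes. Transcripts of Cox6a1 and Ndufa4 have 571 and 610 bases, and that of Atp5b has 1916. The part of this bias in the order was not tested. Cox4i1, a complex IV subunit made in nearly all tissues, had a median of 412.8 FPKM. Ndufs1, the largest iron-sulphur subunit of complex I, had 35.8, and Atp5sl had 16.2.

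The isoforms used mainly in muscle, lung or hypoxic cells were near the bottom. Cox7a1, the form of heart and skeletal muscle, had a median of 7.67 FPKM, and Cox7a2, its partner in liver, had 182.5. Ndufa4l2, known from hypoxic cells, had 2.14 and Cox6b2, known from testis, 0.811. Cox8b, Cox6a2 and Cox4i2, which stand for muscle and lung forms, had 0.328, 0.243 and 0.0891. Ndufb2, a subunit of complex I that is not tissue-restricted and was picked out after its value was seen, was listed at only 0.802 FPKM. Cox7b2 and Cox8c were not analysed here.

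The share of the restricted isoforms was compared as the log2 ratio of their FPKM, with 0.01 added, to that of their usual partner, in 16 two-sided exact permutation tests. The Cox7a1 to Cox7a2 ratio had the smallest p, at -5.10 ± 0.22 in HF-KO (SD, n = 6) and -4.54 ± 0.18 in HF-C (n = 5), a difference of -0.57 (exact permutation p = 0.00866, Benjamini-Hochberg adjusted p = 0.139). The Cox4i2 to Cox4i1 ratio was -13.46 ± 2.28 in HF-KO and -10.48 ± 1.56 in HF-C (exact permutation p = 0.039, adjusted p = 0.312), with Cox4i2 listed at 0 in some libraries. The other 14 tests had adjusted p-values of 0.508 to 0.990, so no isoform ratio passed the threshold.

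**Figure D2:**
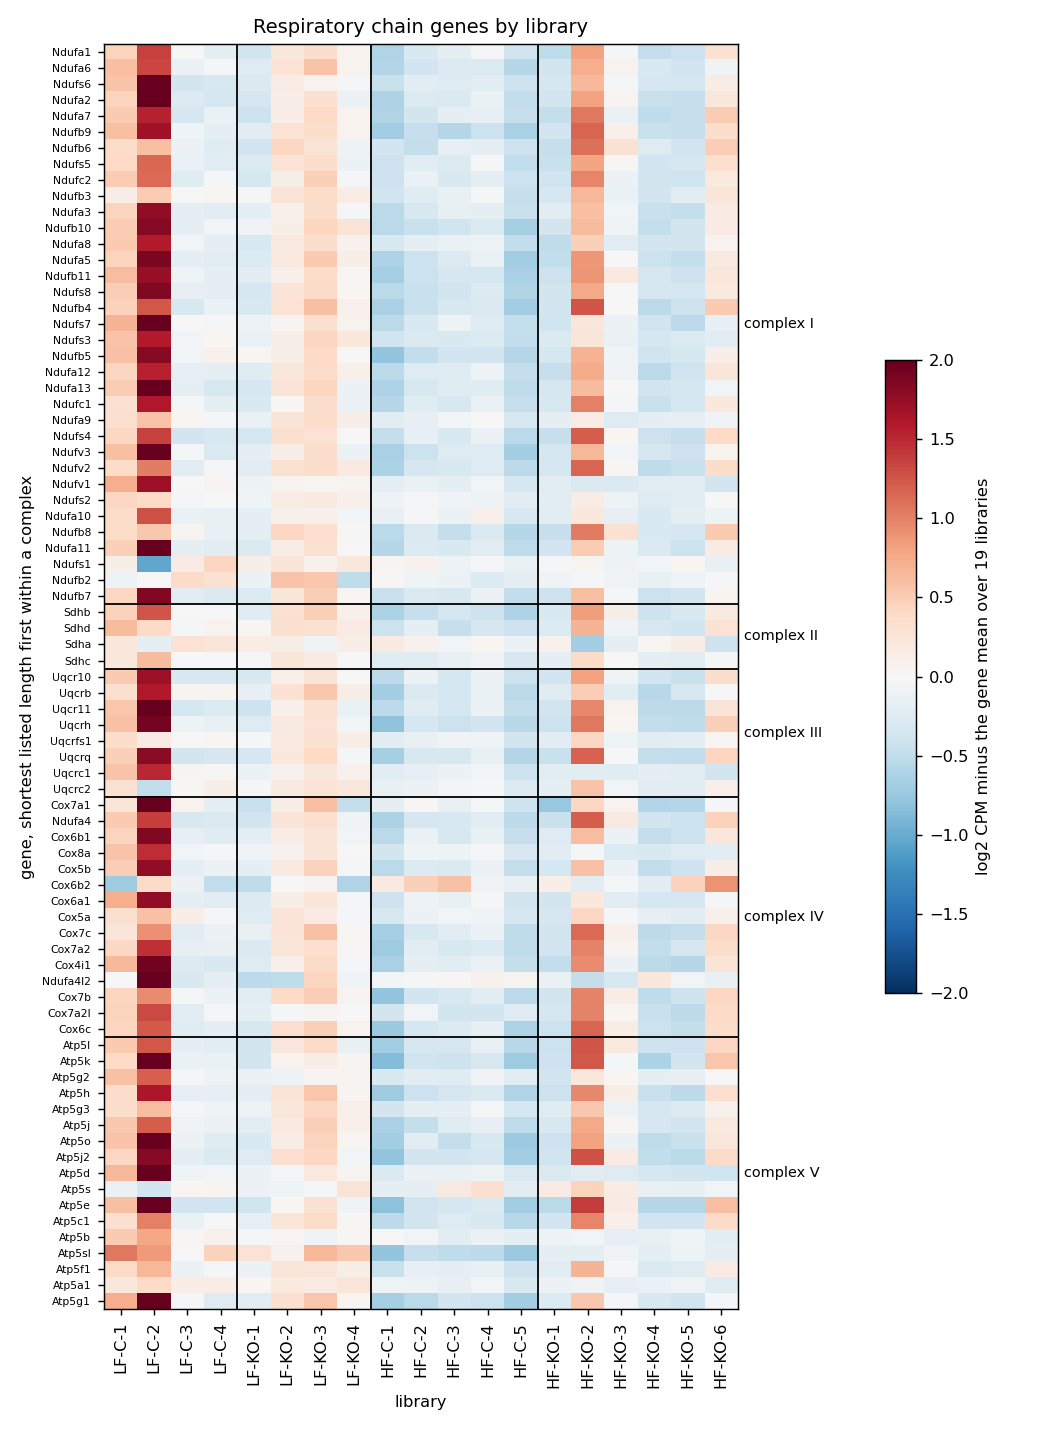
Log2 CPM minus the gene's mean over 19 libraries for the 79 genes that passed the count filter (rows, by complex and then by listed length) in each library (columns, by group). Red columns at LF-C-2 and HF-KO-2 span most genes of every complex, while among the exceptions Ndufs1, Sdha and Uqcrc2 are blue in LF-C-2.

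The comparison of HF-C with LF-C asked how the HF diet differed from the LF diet in control livers. Of the 82 genes, 78 passed the count filter and were tested, and Cox4i2, Cox6a2, Cox6b2 and Cox8b did not pass. Lower levels in HF-C were called for 21 genes and higher levels for 0, where 7.15% of all 13825 genes tested were called lower and 10.6% higher. The median log2 fold change was -0.93, against 0.02 over all genes, and 77 of 78 values were negative. The unadjusted p was under 0.05 for 70 genes of the chain, or 89.7%, and for 34.3% of all genes.

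Calls were found in each complex: 10 of 35 genes of complex I, 2 of 4 of complex II, 2 of 8 of complex III, 1 of 14 tested of complex IV and 6 of 17 counted under complex V. Over all genes tested 7.15% were called lower, so the share in complex IV was near the background. The medians were -0.96, -0.55, -1.01, -0.87 and -0.90 in that order. By coding length, the 56 genes under 600 bases had a median of -0.96, the 13 genes from 600 to under 1200 bases -0.78, and the 9 longer genes -0.38. Single genes did not follow this order throughout. Ndufv3, with a coding length of 1404 bases, had -1.46, while Cox7c, with 189 coding bases, had -0.63. Atp5g1 had -1.48 with 408 coding bases and so followed the order by coding length, although its transcript of 4715 bases was the longest of the chain.

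**Figure D3:**
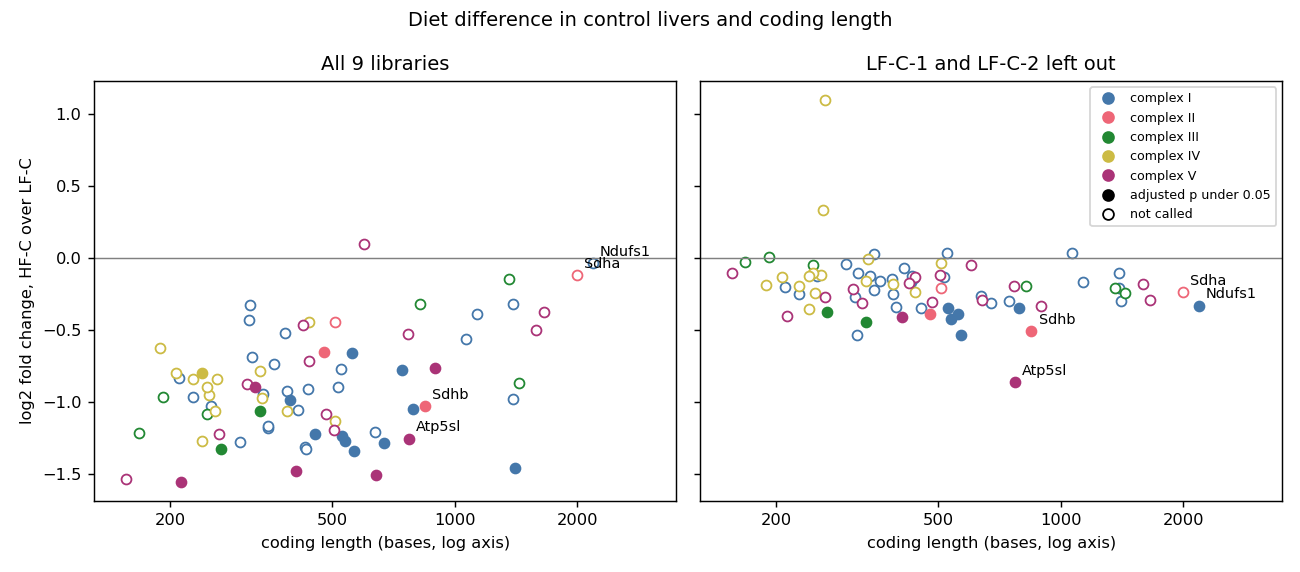
Log2 fold change of HF-C over LF-C (vertical axis) against coding length in bases (horizontal log axis) for each respiratory chain gene, with all 9 libraries (left) and without LF-C-1 and LF-C-2 (right), coloured by complex and filled where the adjusted p was under 0.05. The median moved from -0.93 to -0.20. Of the 4 genes with a name in the plot, Atp5sl, Ndufs1, Sdha and Sdhb, Atp5sl lies lowest in both panels, at -1.25 and -0.86, and on the left unnamed genes such as Atp5k, at -1.55, lie below it.

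In complex II, Sdhb, the iron-sulphur subunit, was at 291, 509, 213 and 213 CPM in the LF-C libraries, in the order of their numbers, and at 137, 153, 166, 158 and 138 CPM in the HF-C libraries, an order also used below. Every LF-C library lay above every HF-C library, and LF-C-2 was far above the other 3. The log2 fold change was -1.03 ± 0.25 (edgeR adjusted p = 0.0190), and without LF-C-1 and LF-C-2 it was -0.51 (adjusted p = 0.00537).

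Sdhd, a membrane anchor of the complex, was at 297, 251, 187 and 199 CPM in LF-C and at 141, 168, 139, 151 and 142 CPM in HF-C. The groups did not overlap, and LF-C-1 rather than LF-C-2 was highest. HF-C over LF-C gave a log2 fold change of -0.65 ± 0.17 (edgeR adjusted p = 0.0231), and -0.39 (adjusted p = 0.0215) without LF-C-1 and LF-C-2. Sdhc, the other anchor, had -0.44 ± 0.17 and missed the threshold (edgeR adjusted p = 0.0889). Without LF-C-1 and LF-C-2 it had -0.21 (adjusted p = 0.165). With the transcript length trend of each library taken out it had -0.71 and was called lower (edgeR adjusted p = 0.0137).

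Sdha, the flavoprotein that oxidises succinate and has the longest coding sequence of the 4, was at 584, 445, 615 and 596 CPM in LF-C and at 573, 536, 483, 517 and 465 CPM in HF-C. Here LF-C-2 was the lowest of all 9 libraries and the groups overlapped. The log2 fold change was -0.12 ± 0.15 (edgeR adjusted p = 0.618). Without LF-C-1 and LF-C-2 it was -0.24 (adjusted p = 0.154), nearer to the -0.51 of Sdhb and the -0.39 of Sdhd. With the transcript length trend of each library taken out it was -0.33 (edgeR adjusted p = 0.0846). LF-C-2 was thus the highest LF-C library for Sdhb and the lowest for Sdha.

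In complex I the core subunit Ndufs1 behaved like Sdha. It was at 96.3, 42.7, 98.7 and 120 CPM in LF-C and at 91.6, 93.7, 82.3, 87.3 and 81.0 CPM in HF-C, with LF-C-2 lowest. On the log2 scale the change was -0.04 ± 0.25 (edgeR adjusted p = 0.937) with all libraries and -0.33 (adjusted p = 0.0455) without LF-C-1 and LF-C-2. Ndufv1, which binds NADH and the flavin, had -0.98 ± 0.32 and missed the threshold (edgeR adjusted p = 0.0577), with -0.21 without these 2 libraries. Of the accessory subunits, Ndufb5 had -1.34 ± 0.35 (edgeR adjusted p = 0.0242), and -0.54 without LF-C-1 and LF-C-2 (adjusted p = 0.00722). Ndufv3 had -1.46 ± 0.45 (edgeR adjusted p = 0.0484), and -0.30 without LF-C-1 and LF-C-2 (adjusted p = 0.139). Also called lower were Ndufs3, Ndufs7 and Ndufv2 of the core and Ndufa6, Ndufb8, Ndufb9, Ndufb10 and Ndufb11 of the accessory subunits.

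In complex III, Uqcrh, the hinge protein that contacts cytochrome c1, had -1.33 ± 0.39 (edgeR adjusted p = 0.0376), and -0.38 (adjusted p = 0.0451) without LF-C-1 and LF-C-2. Uqcrb was also called lower. The core protein Uqcrc1 had -0.87 ± 0.29 (adjusted p = 0.0598) and the Rieske iron-sulphur protein Uqcrfs1 -0.32 ± 0.14 (adjusted p = 0.143). Neither passed edgeR's threshold, and without LF-C-1 and LF-C-2 they had -0.24 and -0.20.

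In complex IV, Cox7b was the single gene called lower. Cox4i1 was at 509, 1239, 269 and 264 CPM in LF-C and at 207, 283, 280, 297 and 234 CPM in HF-C. LF-C-3 and LF-C-4 lay inside the HF-C range, and LF-C-2 was above every other library. The log2 fold change of -1.13 ± 0.42 missed the threshold (edgeR adjusted p = 0.0832) and was -0.04 without LF-C-1 and LF-C-2. Cox5b, another nuclear subunit of the complex, had -1.06 ± 0.37 (edgeR adjusted p = 0.0696), and -0.18 without these 2 libraries.

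In ATP synthase the small subunit e, Atp5k, was at 118, 450, 82.2 and 81.7 CPM in LF-C and at 49.2, 68.2, 67.2, 71.7 and 54.8 CPM in HF-C. The groups did not overlap, and the LF-C-2 value was above that of every other library. Its log2 fold change was -1.55 ± 0.47 (edgeR adjusted p = 0.0453), the largest fall called by edgeR, and -0.40 (adjusted p = 0.0563) without LF-C-1 and LF-C-2. DESeq2 gave Atp5k, Cox7a1 and Ndufa4l2 no p-value in this comparison, and neither did the authors' deposited table. Atp5g1, one of the genes for the proton-carrying c subunit, had -1.48 ± 0.41 (edgeR adjusted p = 0.0321), and -0.41 (adjusted p = 0.0254) without LF-C-1 and LF-C-2. Atp5o, a subunit of the stalk, had -1.51 ± 0.47 (edgeR adjusted p = 0.04998), -0.61 (adjusted p = 0.0410) without LF-C-2 and -0.29 without LF-C-1 and LF-C-2, where the call was lost (adjusted p = 0.158). Atp5j and Atp5c1 were also called lower. The alpha and beta subunits Atp5a1 and Atp5b had -0.38 ± 0.14 (edgeR adjusted p = 0.0875) and -0.50 ± 0.18 (adjusted p = 0.0823), and -0.29 and -0.18 without LF-C-1 and LF-C-2.

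Atp5sl had the smallest adjusted p of the chain. It was at 82.8, 71.6, 39.5 and 54.9 CPM in LF-C and at 22.7, 28.6, 27.8, 27.5 and 23.5 CPM in HF-C. All LF-C libraries lay above all HF-C libraries, and LF-C-2 was not the highest. The log2 fold change was -1.25 ± 0.21 (edgeR adjusted p = 0.00305), and -0.86 (adjusted p = 0.00114) without LF-C-1 and LF-C-2. It was the only gene among those tested of the chain called lower whichever single library was left out, so no gene regarded as a subunit was.

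**Figure D4:**
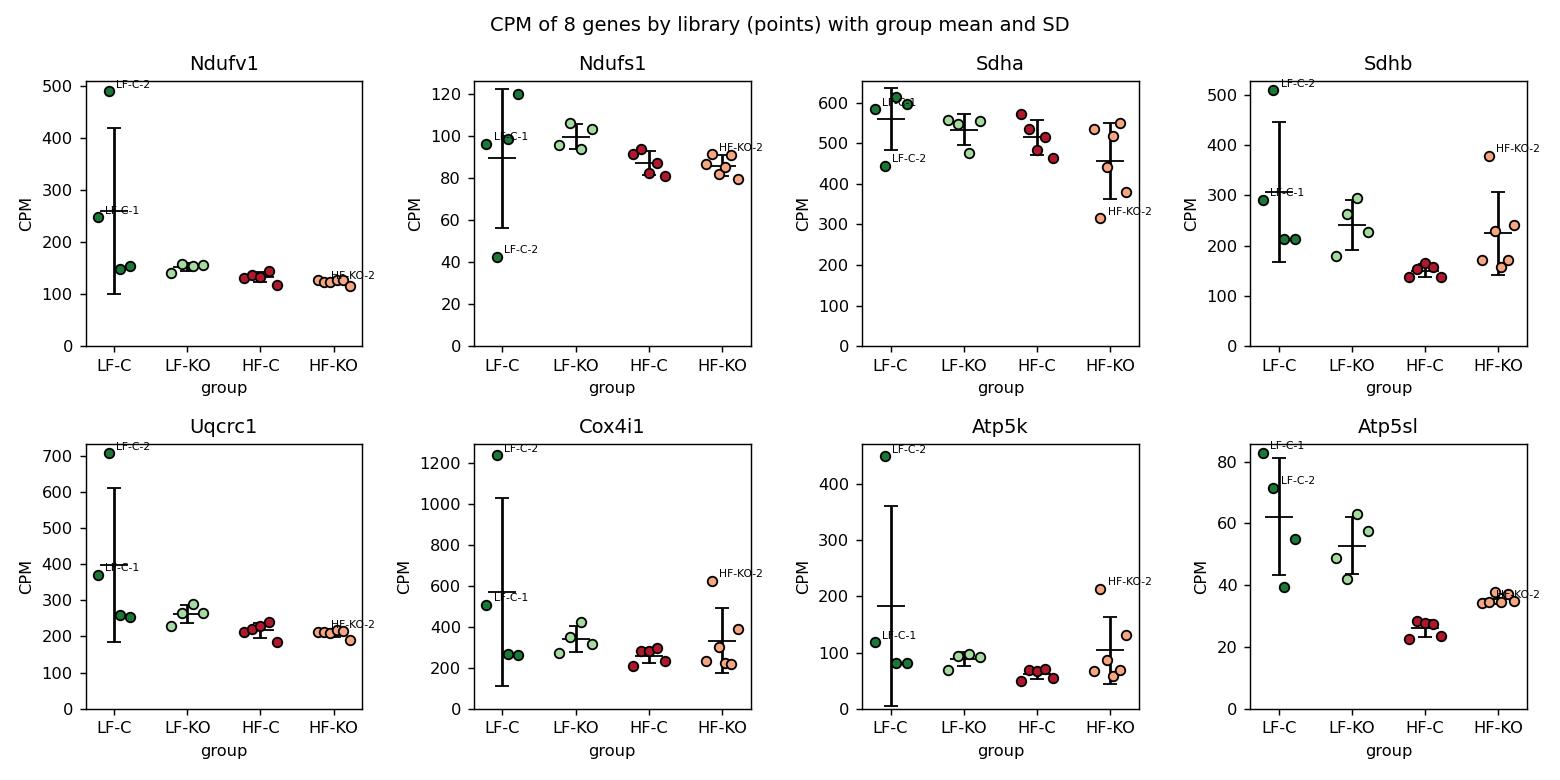
CPM (vertical axes, from 0) of 8 respiratory chain genes in each library (points), by group, with the group mean and SD (bars). Sdhb, Cox4i1 and Atp5k have LF-C-2 as their top point, Ndufs1 and Sdha have it as the lowest LF-C point, and the 6 HF-KO points of Atp5sl, between 34.4 and 37.8, sit above the 5 HF-C points, between 22.7 and 28.6.

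Without LF-C-1 and LF-C-2, 12 of 79 genes tested were called lower and 0 higher, where 13.0% of all genes were called lower. The median fell in size to -0.20, against 0.00 over all genes, with 73 of 79 negative. Of the 12, 11 were among the 21 called with all libraries: Atp5g1, Atp5sl, Ndufb10, Ndufb5, Ndufb8, Ndufb9, Ndufs3, Sdhb, Sdhd, Uqcrb and Uqcrh. The other was Ndufs1. The share of the chain called lower was thus close to the background when the 2 libraries were left out.

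With the transcript length trend of each library as an offset and all 9 libraries, 54 of 78 were called lower, where 19.7% of all genes were. The median was then -0.59, against -0.17 over all genes. With both the offset and the 2 libraries left out, 49 of 79 were called lower, against 25.2% of all genes, at a median of -0.35 and -0.15 over all genes. DESeq2 called 68 of 78 lower and 15.2% of all genes. The authors' deposited table gave 66 of the 82 as lower and 0 as higher at an adjusted p under 0.05, where 11.8% of all genes in that table were lower. The number of calls ranged widely with 1 library left out: 3, 24, 59 and 61 without each LF-C library in turn, by number, where 4.07%, 10.1%, 11.5% and 11.1% of all genes were called lower. Without each HF-C library in turn it was 1, 4, 3, 3 and 1, where 3.29%, 3.69%, 4.65%, 3.61% and 3.31% of all genes were.

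For 35 of the 78 genes every HF-C library lay below every LF-C library, where 8.61% of all genes did so. For all 35 the lowest LF-C library was LF-C-3 or LF-C-4. The margin was small: the lowest LF-C level was a median of 1.07 times the highest HF-C level, and at most 1.38 times, for Atp5sl. The choice of scaling mattered as well, since by library size alone, in place of TMM, 3 genes were called lower, Atp5sl, Ndufb5 and Sdhb, where 2.36% of all genes were, and the median of the chain was -0.38 with all genes at 0.43. In unscaled FPKM summed over the chain, LF-C-3 and LF-C-4 had 12020 and 11726, within the 10796 to 13233 of the HF-C libraries.

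Reads of 29 genes of the chain may be shared with near copies, since they share at least 150 bases at 95% identity or more with another gene, 21 of them with an annotated pseudogene. Their median in this comparison was -0.97, with 10 called lower, against -0.90 and 11 of the 49 others tested. Macrophage markers summed to 204.1, 515.4, 176.3 and 127.6 CPM in the LF-C libraries by number and to 408.7 to 750.9 in HF-C, so that LF-C-2 alone lay within the HF-C range. Stellate cell markers summed to 119 to 130.1 and 228.4 to 375.1. The part of the cell makeup in the lower levels was not tested.

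Other lists of mitochondrial and ribosomal genes were described beside the chain in the same comparison. Over all genes tested, 7.15% were called lower with all libraries and 13.0% without LF-C-1 and LF-C-2. Of 12 mitochondrially encoded subunits tested, 3 were called lower: mt-Co3 at -0.75 ± 0.20, mt-Nd3 at -1.28 ± 0.35 and mt-Co2 at -0.80 ± 0.23. Their median was -0.32 with all libraries and -0.50, with 7 called lower, without LF-C-1 and LF-C-2. Cytosolic ribosomal proteins, whose genes are as short as those of the chain with a median listed length of 928 bases, had a median of -0.94 over 76 genes with all libraries and 0.01 without these 2, with 1 called lower in the first case. Mitochondrial ribosomal proteins had -0.62 and -0.09 over 75 genes, with 5 called lower with all libraries. Without the 2 libraries both ribosomal medians were thus nearer to 0 than the -0.20 of the chain, a difference that was not tested.

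Of 38 assembly factors, 4 were called lower, among them Ndufaf6 at -1.01 ± 0.23, and the median was -0.44, or -0.18 without LF-C-1 and LF-C-2. Of 15 genes listed under electron carriers, 4 were called lower. Among them was Cyc1, the cytochrome c1 subunit of complex III that the symbol rule does not take, at -0.90 ± 0.27. The median of this list was -0.42, or -0.20 without LF-C-1 and LF-C-2. Of 17 regulators of mitochondrial biogenesis, 2 were called lower, the receptor Esrra at -0.70 ± 0.21 and the coactivator Ppargc1b at -0.82 ± 0.25, and the median was -0.20, or -0.31 with 4 called. Of 18 genes of the TCA cycle, Fh1 at -0.87 ± 0.19 and Idh3b at -0.60 ± 0.16 were called lower and Idh2 at 0.72 ± 0.17 higher. Of 12 genes of uncoupling and alternative electron routes, 2 were called higher, among them the ADP and ATP carrier Slc25a4 at 0.80 ± 0.18, and 4 lower, among them proline dehydrogenase, Prodh, at -1.39 ± 0.22. These calls are by edgeR at an adjusted p under 0.05, where 7.15% of all genes were called lower and 10.6% higher. Without LF-C-1 and LF-C-2, 13.0% of all genes were called lower. Whether any of these lists differed from all genes was not tested.

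The comparison of HF-KO with LF-KO asked the same of diet in the KO-labelled livers. Atp5sl was the 1 gene of 78 tested that was called lower, and 0 were called higher, where 1.06% of all 13624 genes were called lower and 3.62% higher. Since Atp5sl is regarded as an assembly factor, no subunit was called here by edgeR with all libraries. The median of the chain was -0.10, against 0.01 over all genes, and 6 genes, or 7.69%, had an unadjusted p under 0.05, against 19.7% of all genes.

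Atp5sl was at 48.7, 41.9, 63.0 and 57.5 CPM in LF-KO and at 34.4 to 37.8 CPM, with a median of 34.8, in the 6 HF-KO libraries. The groups did not overlap. Its log2 fold change was -0.57 ± 0.13 (edgeR adjusted p = 0.0308), and leaving out 1 library gave between -0.67 and -0.48, with the call lost without replicate 3 or 4 of LF-KO, or without replicate 1, 3, 4 or 6 of HF-KO. Sdhb was at 179, 263, 294 and 226 CPM in LF-KO and at 158 to 379, with a median of 200, in HF-KO, and the groups overlapped, at a log2 fold change of -0.10 ± 0.24 (edgeR adjusted p = 0.881).

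Every HF-KO library lay below every LF-KO library for 6 genes, Atp5d, Atp5a1, Uqcrc1, Ndufs1, Ndufv1 and Atp5sl, where 2.73% of all genes did so. Of the 82 genes, 5 were lower in the authors' deposited table, where 2.86% of all genes were. DESeq2 also called 5 lower, and 3.38% of all genes. Without HF-KO-2, edgeR called 2 lower, or 2.56%, where 2.55% of all genes were, and the median was -0.28.

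The comparison of HF-KO with HF-C asked how the KO-labelled livers differed from controls on the HF diet. Of 79 genes tested, Cox6b2 now among them, Atp5sl was the 1 called higher and 0 were called lower, where 4.35% of all 13915 genes were called higher and 5.43% lower. Again no gene regarded as a subunit was called by edgeR with all libraries. The median of the chain was 0.39, against 0.02 over all genes, and 28 genes, or 35.4%, had an unadjusted p under 0.05, against 28.3% of all genes.

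With the HF-C and HF-KO levels of Atp5sl given above, all 6 HF-KO libraries lay above the highest HF-C library, at 28.6 CPM. Its log2 fold change was 0.48 ± 0.10 (edgeR adjusted p = 0.0106), and it was 0.48 (adjusted p = 0.00457) without HF-KO-2. Levels of Atp5sl in HF-KO thus lay between those of HF-C and those of both LF groups. It was also the 1 gene of the chain whose HF-KO libraries all lay above HF-C, where 4.18% of all genes did so.

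Sdhb, with HF-KO values from 158 to 379 CPM and HF-C values from 137 to 166, had a log2 fold change of 0.62 ± 0.21 and missed the threshold (edgeR adjusted p = 0.0794), with 0.39 (adjusted p = 0.0580) without HF-KO-2. The groups overlapped, and HF-KO-2 was highest. Atp5k, at 57.7 to 214 CPM with a median of 78.3 in HF-KO, had 0.79 ± 0.31 (edgeR adjusted p = 0.118), also with HF-KO-2 highest, and 0.43 (adjusted p = 0.157) without it. Of the 9 genes with a coding length of at least 1200 bases, 7 lay between -0.15 and 0.04, among them Ndufs1 at 0.01 ± 0.09, Ndufv1 at -0.06 ± 0.09, Uqcrc1 at -0.02 ± 0.10, Atp5a1 at 0.04 ± 0.09 and Sdha at -0.15 ± 0.14 (edgeR adjusted p-values of 0.507 to 0.949). The other two were Ndufv3 at 0.47 ± 0.20 (edgeR adjusted p = 0.143), or 0.26 without HF-KO-2, and Uqcrc2 at 0.19 ± 0.15 (adjusted p = 0.439). Genes with a coding length under 600 bases had a median of 0.43, those up to 1200 bases 0.35 and the longer ones 0.01.

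Without HF-KO-2, Atp5sl and Atp5g1, the latter at 0.36 (edgeR adjusted p = 0.0364), were called higher, where 5.91% of all genes were, and the median was 0.17. With the transcript length offset 7 were called higher, Ndufb11, Ndufb5, Ndufb8, Ndufb9, Ndufs8, Sdhb and Atp5sl, where 7.39% of all genes were. The authors' deposited table gave 4 of the 82 as higher, where 6.82% of all genes in it were. In the same comparison Adck3, a gene of ubiquinone synthesis listed under electron carriers, was called higher at 0.54 ± 0.16. Also called higher were the regulator Gabpa, a subunit of the GABP factor, at 0.41 ± 0.11, and the assembly factors Acn9 at 0.77 ± 0.23 and Cox11 at 0.44 ± 0.13. The uncoupling protein gene Ucp2 was called lower at -1.03 ± 0.21, as was Gpd2, of the glycerol phosphate shuttle, at -0.65 ± 0.14.

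The comparison of LF-KO with LF-C gave no call. By edgeR 0 of 78 genes were called and 0 had an unadjusted p under 0.05, where 0% of all 13056 genes were called, and DESeq2 also called 0 of the chain, and 0.0460% of all genes. Of the 82 genes, 0 were called in the authors' deposited table, where 0.0231% of all genes were. The median was -0.49, against -0.03 over all genes, 0.00 without LF-C-2 and 0.22 without both LF-C-1 and LF-C-2. Atp5b was the 1 gene whose LF-KO libraries all lay below all LF-C libraries, where 1.42% of all genes did so. It was at 1703, 2037, 1225 and 1261 CPM in LF-C and at 1173, 1216, 1129 and 1212 in LF-KO, a log2 fold change of -0.39 ± 0.22 (edgeR adjusted p = 0.704). The narrow gap lay between 1225 in LF-C-3 and 1216 in LF-KO-2.

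How the KO effect differed between the diets was tested over all 19 libraries as the log2 fold change of HF-KO over HF-C less that of LF-KO over LF-C. By edgeR 0 of 79 genes were called in either direction, 37 had an unadjusted p under 0.05, or 46.8% against 12.9% of all genes, and 0.202% of all 14391 genes were called. The median of the chain was 0.83, against 0.00 over all genes. The largest values were those of Atp5e at 1.83 ± 0.66 (edgeR adjusted p = 0.294), Atp5k at 1.79 ± 0.60 (0.241), Uqcrh at 1.43 ± 0.51 (0.286) and Atp5o at 1.41 ± 0.55 (0.317), all with a GENCODE transcript under 1000 bases. The smallest were those of Ndufs1 at -0.18 ± 0.27, Sdha at -0.10 ± 0.23, Atp5s at -0.03 ± 0.27 and Uqcrc2 at 0.01 ± 0.25, with adjusted p-values of 0.822 to 0.992.

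Atp5e, the epsilon subunit, was at 414, 1424, 210 and 208 CPM in LF-C and at 208, 283, 337 and 257 CPM in LF-KO. On the HF diet it was at 155, 209, 217, 224 and 169 CPM in HF-C, and at 184 to 724 CPM with a median of 248 in HF-KO. LF-C-2 and HF-KO-2 held the highest values of their diets. The median of the chain was 0.39 without LF-C-2, 0.14 without LF-C-1 and LF-C-2, and -0.05 without these and HF-KO-2. Without those 3 libraries Atp5e had 0.03, Atp5k 0.31, Uqcrh 0.21 and Atp5o -0.03.

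**Figure D5:**
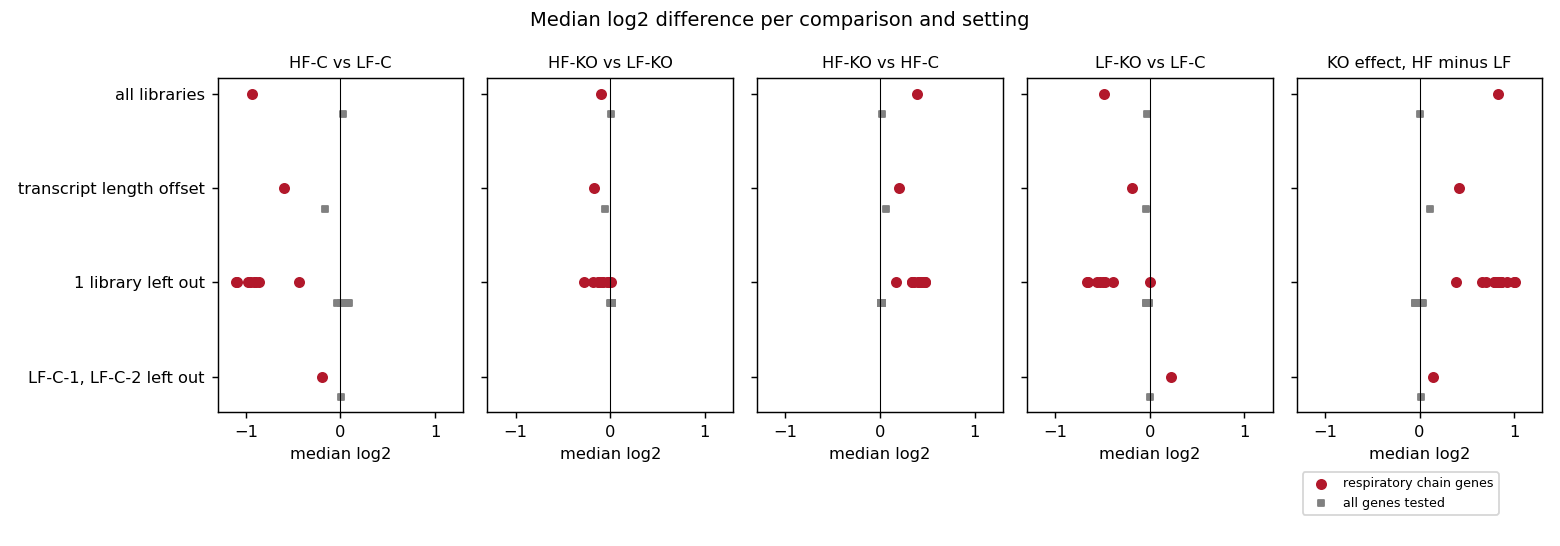
Median log2 difference (horizontal axes) of the respiratory chain genes (red circles) and of all genes tested (grey squares) in the 5 comparisons (panels), with all libraries, with the transcript length offset, with 1 library left out at a time (1 point each) and without LF-C-1 and LF-C-2 where LF-C enters. The median for HF-C against LF-C moves from -0.93 to -0.20, and that of the difference between diets from 0.83 to 0.14, when these 2 libraries are left out.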

How the data were processed

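RNA sequencing of whole liver gave 19 libraries in 4 groups of labelled diet and genotype. Unstranded NEBNext Ultra libraries from Trizol-extracted RNA were sequenced as read pairs and mapped with STAR 2.5, per the labels' protocols. HTSeq 0.6.1 and DESeq2 are further tools in the submitters' processing notes. The sources used here do not give the genome build or the annotation. Per the file headers, the 4 deposited tables hold read counts per gene, FPKM values, and the authors' log2 fold changes, p-values and adjusted p-values for 1 pair of groups each. The authors' group means, a signal of normalized counts, were deposited in the same tables and not used here. The 38 library columns shared between tables were identical, and 0 columns lacked a sample. The tables were joined into 24192 genes.

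Counts were tested in R 4.3.3 with edgeR 4.0.16 (TMM, filterByExpr, quasi-likelihood F test, two-sided), each pair of groups on its own libraries and the difference of the KO effect on all 19, with Benjamini-Hochberg adjustment over all genes tested and a threshold of 0.05. The SE of a fold change is its size divided by the square root of the F statistic. Length trends were splines of log2 deviation on log2 length, fitted per library without the respiratory chain genes and used as offsets. Transcript and coding lengths came from GENCODE release M21, in which all 82 genes were found. Isoform ratios were tested with exact permutation tests. The YY1 motif searched in promoters was cut to 9 letters after a longer form had been searched and its matches seen. Scripts were tested on simulated counts. Alternatives were DESeq2 1.42.0, limma 3.58.1 with voom, other scalings, no count filter, length trends, a replicate block and libraries left out. The transcript length and GC offsets, alone or with LF-C-1 and LF-C-2 left out, and the removal of LF-C-1, LF-C-2 and HF-KO-2 together were added after seeing the data. The respiratory chain genes, the other gene lists and the tests were chosen with earlier results of these data known.

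Genes named by rule were 10 fixed subunits, 8 fixed tissue-restricted isoforms, up to 6 of the largest called rises and falls per comparison, and the 4 largest and 4 smallest differences of the KO effect. Counts are of sequenced fragments, and intervals from counting would be too narrow. Nothing in the labels beyond separate mice says whether livers were processed together, and no batch is given.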

Additional observations from a re-analysis of the deposited data

Results flagged for a closer look

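Dixon's test at the 95% level was run on 40 sets of values, each for 1 gene or summary in 1 group of 4 to 6 libraries, and chance flags about 1 in 20 such groups. In 4 cases 1 library lay far from the others of its group. In LF-C, LF-C-2 had 10.03 CPM of Ndufa4l2, with a gap to the nearest library of 0.940 of the group's range, and 14.77 CPM of Cox7a1, with a gap of 0.925. In HF-KO, HF-KO-2 had 378.8 CPM of Sdhb, with a gap of 0.629, and a length-adjusted mean log2 CPM of the chain of 7.114, with a gap of 0.649. Both libraries had the strongest bias towards short genes, and its part in these values was not tested.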

How the results depend on the processing

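For HF-C against LF-C, the 21 genes called lower became 3 by library size alone, 6 with limma-voom, 68 with DESeq2, 53 with all 19 libraries in one fit, 56 with the gene length offset, 54 with the transcript length offset, 61 with transcript length and GC, 12 without LF-C-1 and LF-C-2 and 49 with both changes, where 2.36%, 5.61%, 15.2%, 13.1%, 19.7%, 19.7%, 22.3%, 13.0% and 25.2% of all genes were called lower, in that order, and ranged from 1 to 61 with 1 library left out. For HF-KO against LF-KO, the 1 call became 0 by library size alone or in the fit of 19 libraries, 2 with either length offset, 5 with DESeq2 or with the GC offset, where 0.360%, 0.653%, 2.77% (gene length), 2.88% (transcript length), 3.38% and 7.13% of all genes were called lower, and 0 to 2 with 1 library left out. For HF-KO against HF-C, the 1 call became 4 with DESeq2, 6 with the gene length offset, 7 with transcript length, 12 with GC added, 0 in the fit of 19 libraries, where 7.96%, 6.87%, 7.39%, 9.13% and 1.37% of all genes were called higher, and 1 to 2 with 1 library left out.

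Replicate numbers did not pair the libraries: the correlations of same-numbered deviations were -0.18 to 0.18. With the replicate number as a block, 0 genes were called lower in HF-C against LF-C (1.10% of all genes), or 5 with the length offset (4.57%), and 0 in HF-KO against LF-KO with either, and the block turned Ndufs1 to 0.079 in the first and, in the difference of the KO effect, Atp5s to 0.020 and Uqcrc2 to -0.0026, or -0.0108 with the length offset.

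Signs turned mostly for genes near 0, and also for Atp5o. For HF-C against LF-C, library size alone gave Ndufs1 0.31, Sdha 0.27, Uqcrfs1 0.11 and Atp5a1 0.061, voom gave Ndufs1 0.062, and with 1 library left out Ndufs1 ranged from -0.30 to 0.14. For the difference, leaving out LF-C-1 and LF-C-2 gave Ndufs1 0.14, Sdha 0.029 and Atp5s 0.14, and leaving out HF-KO-2 as well gave Ndufs1 0.10, Sdha 0.10, Atp5s 0.033, Uqcrc2 -0.063 and Atp5o -0.031. Sdha was 0.0063 with the gene length offset, 0.024 with transcript length and 0.057 with GC added. Atp5s was 0.0027 with median-of-ratios factors and 0.0012 with DESeq2. Uqcrc2 was -0.21 by library size alone, -0.043 with voom, -0.015 without the count filter and -0.0068 with the gene length offset. With 1 library left out the ranges of the difference were -0.37 to 0.090 for Ndufs1, -0.17 to 0.025 for Sdha, -0.13 to 0.096 for Atp5s and -0.14 to 0.19 for Uqcrc2. The isoform ratios that turned sign ranged from -0.17 to 0.20 for Cox7a1 in HF-C against LF-C, -0.45 to 1.52 for Cox4i2 in LF-KO against LF-C, and -0.76 to 1.27 for Cox6a2 and -0.26 to 0.27 for Ndufa4l2 in HF-KO against LF-KO. The cause was not tested.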
